A study of Homo sapiens with 6 samples.

Results

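Cytochrome P450 genes are described here in MCF10A cells grown with and without growth factors: CYP4F11, its related pseudogene CYP4F29P, CYP1A1, CYP1B1, CYP27B1 and CYP2S1. The genes were taken by name from a table of 19198 genes, and 5 of the 6 were matched, with CYP2S1 not analysed here. They were chosen with the difference between the growth conditions known, so their values in that comparison are given as a description, with no test. The rest of the P450 family, 30 genes in the table, was taken whole, and 60 genes of 8 P450-related pathways were listed by function, although with earlier results of these data known. The genes of these groups that had enough counts were tested.

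MCF10A is an established, non-tumorigenic line of human mammary epithelial cells that needs added factors to grow. RNA-Seq was carried out on 6 samples, replicates 1 to 3 in each condition, to compare normal growth with growth factor depletion. All samples were grown in DMEM:F12 with 5% horse serum. Control cells also received EGF at 20 ng/ml, insulin at 10 µg/ml, hydrocortisone, a glucocorticoid, at 0.5 µg/ml, and cholera toxin, which raises cyclic AMP, at 100 ng/ml. Depleted cells received none of these 4 agents, so the part of each agent cannot be told apart. The methods name added glutamine for the full medium but not for the depleted medium, so it may differ as well. The day of harvest was not given for these samples, and the labels do not say whether replicates came from separate cultures, so the errors below may be technical.

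P450 enzymes are haem proteins that insert oxygen into small molecules, using electrons handed on by P450 oxidoreductase in the endoplasmic reticulum or by ferredoxin in mitochondria. CYP4F enzymes hydroxylate the end of fatty acid chains, which for CYP4F3 ends the action of leukotriene B4. CYP1A1 and CYP1B1 are the classical targets of the aryl hydrocarbon receptor (AHR), which binds DNA together with ARNT when a ligand is present, and they oxidise polycyclic hydrocarbons and oestrogens. CYP27B1, a mitochondrial enzyme, makes the active form of vitamin D.

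Because pseudogene and gene can share reads, the sequences of CYP4F29P and CYP4F11 were compared first. CYP4F29P is a transcribed unprocessed pseudogene at chr21:13846759-13847713 (hg38, minus strand) and CYP4F11 is a protein-coding gene at chr19:15912367-15934867 (minus strand). All stretches of 100 bases, the read length, were taken from the transcripts annotated in Gencode v44. The counted identifier of CYP4F29P gave 347 such stretches, and 1815 were obtained when a long noncoding RNA of the same name was included. None of the 1815 was found in CYP4F11, and 0 with up to 2 mismatches. The closest pair had 15 mismatches. It is shown here because it is the nearest the pseudogene comes to CYP4F11, with capitals marking the bases of CYP4F11 that differ, both 5′ to 3′ and each across 1 splice junction, at chr21:13847089-13847514 and at chr19:15922396-15923876, where all 100 bases are coding.
CYP4F29P: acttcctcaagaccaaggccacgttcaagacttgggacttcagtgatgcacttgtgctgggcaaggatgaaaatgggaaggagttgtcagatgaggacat
CYP4F11: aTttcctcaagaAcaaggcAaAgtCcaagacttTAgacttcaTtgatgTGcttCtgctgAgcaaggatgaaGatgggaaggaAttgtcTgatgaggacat

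CYP4F29P did share stretches with other pseudogenes. Of the 347 stretches of the counted pseudogene, 27 (7.78%) occurred unchanged in CYP4F35P on chromosome 18 and 102 (29.4%) matched it with up to 2 mismatches. With the noncoding RNA of the same name included, 187 and 800 of 1815 did so (10.3% and 44.1%). CYP4F35P was taken by name, with 2905 stretches, and its counted identifier (chr18:14338015-14338834) was not compared alone. The sharing between the 2 counted identifiers was therefore not measured. The stretch shown next, identical in both, lies at chr21:13847614-13847713 (minus strand) and chr18:14338014-14338113 (plus strand). A read from it cannot be given to either copy.
CYP4F29P: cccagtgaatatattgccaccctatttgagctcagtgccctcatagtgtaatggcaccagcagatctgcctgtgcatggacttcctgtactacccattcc
CYP4F35P: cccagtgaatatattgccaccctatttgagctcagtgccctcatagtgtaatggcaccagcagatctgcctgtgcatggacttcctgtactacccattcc
The counts of these 2 pseudogenes are therefore uncertain. Of 3814 stretches of CYP4F11, 0 occurred unchanged in any other gene. Mismatches were counted only against the other CYP4F genes with counts here, of which CYP4F3 came nearest, with 3 mismatches at the closest. CYP4F genes without counts here were not compared in this way. CYP1A1 (0 of 3740) and CYP1B1 (0 of 6300) shared none either, and CYP27B1 shared 11 of 3300 (0.333%) with METTL1. The start of CYP27B1 overlaps the end of METTL1 on the same strand by 516 bases.

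Of the 5 genes analysed, CYP1A1 and CYP4F11 could be matched to a promoter sequence from RefSeq (GRCh38.p14). The pair is shown because, of these 2 genes, CYP1A1 held the core letters bound by AHR with ARNT, GCGTG on either strand, once, at position -57 from the start and in capitals here. The runs are the last 120 bases before the start, at chr15:74725529-74725648 for CYP1A1 and chr19:15934868-15934987 for CYP4F11, both on the minus strand.
CYP1A1: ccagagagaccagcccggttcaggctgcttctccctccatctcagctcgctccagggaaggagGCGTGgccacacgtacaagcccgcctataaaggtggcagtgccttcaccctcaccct
CYP4F11: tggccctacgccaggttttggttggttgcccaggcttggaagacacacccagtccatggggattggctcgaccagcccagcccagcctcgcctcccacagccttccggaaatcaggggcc
In the window of 250 bases before to 50 after the start, GCGTG was present in 36.5% of 35116 promoters, so the match in CYP1A1 is a common one. A second CYP4F11 start held the AP-1 letters TGANTCA once, at position -137, a motif found in 7.71% of promoters, and neither CYP4F11 start nor CYP1A1 held the CREB letters TGACGTCA (1.85% of promoters) or the glucocorticoid half-site letters AGAACA (14.8%). The promoter of CYP4F3, a relative described below, held TGANTCA at position -165 and AGAACA at -6. CYP1B1, CYP27B1 and CYP4F29P had no promoter entry.

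The values below are normalized counts, that is, reads per gene divided by the size factor of the sample, with no division by gene length. Between 7472418 and 28672630 reads per sample lay on genes, and 3 reads, taken as the floor, corresponded to between 1.758 and 6.708 normalized counts, for counting error only. Keratin 5 and E-cadherin (CDH1), markers of the labelled cell type, were present in every sample. The depleted replicate 1 stood apart in both, with 562 normalized counts of KRT5 and 609.6 of CDH1, while the other depleted samples had at least 10908 and 13118. Of the other basal and general epithelial markers, EPCAM, CLDN4, KRT8, KRT17 and TP63 were also lowest there among depleted samples. KRT14 (980.3), ITGA6 (6817), ITGB4 (13337) and KRT19 (30.2) were highest there, and KRT18 lay between. The summed level of 8 fibroblast markers was 225 to 451 in control and 9957 to 33378 in depleted samples. Of the 8, 6 were called higher by limma, among them COL1A2, COL3A1 and LUM, beside 4.36% of all genes tested. In bulk RNA, fewer cells of a type and less RNA per cell cannot be told apart, and the part of these markers in the results below was not tested.

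CYP4F11 was lower in every depleted sample. Its normalized counts were 146.6, 145.9 and 250.9 in control replicates 1 to 3, and 21.97, 33.44 and 29.07 in depleted replicates 1 to 3. The control samples were all above the depleted ones, with control replicate 3 the highest. The mean was 181 ± 60.4 (SD, n = 3) with growth factors and 28.2 ± 5.79 (SD, n = 3) without, 15.5% of the control mean. On the log2(normalized count + 1) scale the difference was -2.61 (SE 0.44). These values rest on 117 to 255 reads per control sample and on 24, 51 and 13 reads in the depleted samples.

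CYP4F29P had the largest difference of the 5. It had 268.2, 133 and 1341 normalized counts in the controls (replicates 1 to 3) and 0.9153, 3.934 and 0 in depleted replicates 1 to 3. Control samples varied widely among themselves, with replicate 3 again the highest, and all lay above the depleted ones. The depleted values rest on 1, 6 and 0 reads, against 1804 reads over the control samples. The log2 difference of -7.43 (SE 0.94) depends on the pseudocount at such low counts and was -5.04 with a pseudocount of 10. As CYP4F35P had normalized counts of 31.33, 15.82 and 153.5 in control replicates 1 to 3, it followed the same order of control samples, with replicate 3 highest and replicate 2 lowest. If reads of CYP4F29P were added to those of CYP4F11, the log2 difference of CYP4F11 would be -4.24 in place of -2.61.

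CYP1A1, the AHR target used as a measure of receptor activity, was the only one of the 5 genes with a higher mean in depleted cells. The gene lies at chr15:74719542-74725536 (minus strand). Its normalized counts were 180.5, 74.4 and 225.3 in control replicates 1 to 3, and 637, 199.3 and 308.6 in depleted replicates 1 to 3. The groups overlapped, since depleted replicate 2 lay below control replicate 3. The means were 160 ± 77.5 and 382 ± 228 (SD, n = 3), with a log2 difference of 1.23 (SE 0.56). Depleted replicate 1 was the highest, and without it the log2 difference was 0.77.

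CYP1B1, which in many tissues outside the liver is the more abundant member of the CYP1 family, was lower in every depleted sample. The gene lies at chr2:38066973-38109902 (minus strand). It had 6553, 6163 and 5929 normalized counts in the controls (replicates 1 to 3) and 4105, 2177 and 1359 in depleted replicates 1 to 3. The control samples lay close together and the depleted ones spread widely, with replicate 1 the highest. The means were 6215 ± 315 and 2547 ± 1410 (SD, n = 3), so that depleted cells had 41% of the control mean. The log2 difference was -1.43 (SE 0.41), and -1.85 without depleted replicate 1. CYP1B1 overlaps CYP1B1-AS1 on the opposite strand over 36456 bases, which had a mean of 32.1 normalized counts, and RMDN2 (mean 80.6) over 170 bases. Whether the counting used the strand is not given in the sources used here, so reads of overlapping genes may not be told apart.

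CYP27B1, at chr12:57762334-57768986 (minus strand), was lower in every depleted sample as well. Its normalized counts were 70.18, 104.9 and 69.85 in control replicates 1 to 3, and 22.88, 32.78 and 31.3 in depleted replicates 1 to 3. The groups did not overlap. The means were 81.6 ± 20.1 and 29 ± 5.34 (SD, n = 3), with a log2 difference of -1.45 (SE 0.45). The depleted values rest on 25, 50 and 14 reads. METTL1, whose end overlaps the start of CYP27B1 on the same strand, had a mean of 85.3 normalized counts.

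**Figure D1:**
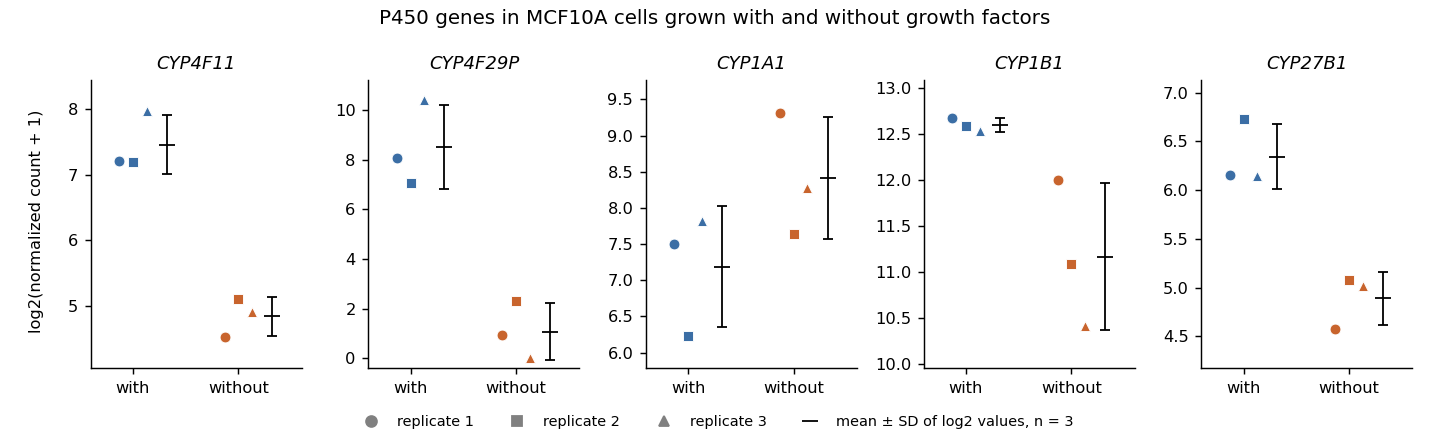
Normalized counts of the 5 P450 genes on a log2(normalized count + 1) axis, with a separate axis range for each gene, in MCF10A samples with (blue) and without (orange) growth factors. Points are single samples, shaped by replicate, and black bars are the mean ± SD of the log2 values (n = 3); depleted samples lie below the control samples in all panels but CYP1A1, where they overlap.

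The depleted samples lay below the control samples for 4 of the 5 genes, where 12.1% of the 16988 genes tested did so and 25.6% had no overlap in either direction. Limma called 1.97% of the genes tested as lower, 4.36% as higher and 6.33% in either direction, and no calls are given for the 5. Since the 5 genes were chosen on this contrast, nothing is read from the 4 without overlap.

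Per length, CYP1B1 stood far above the other intact enzymes. Per kb of the longest transcript, control cells had 1191 ± 60.4 normalized counts of CYP1B1, 61.4 ± 29.7 of CYP1A1, 59.4 ± 19.8 of CYP4F11 and 33 ± 8.13 of CYP27B1 (SD, n = 3). CYP1A1 and CYP4F11 differed by less than their spread. In depleted cells the levels per kb were 488 ± 270 for CYP1B1, 146 ± 87.4 for CYP1A1, 11.7 ± 2.16 for CYP27B1 and 9.23 ± 1.9 for CYP4F11, and the last pair again could not be parted. CYP4F29P had 1302 ± 1484 per kb in control and 3.62 ± 4.62 in depleted cells, over an annotated length of only 446 bases. That length is from Gencode v44, where a long noncoding RNA of the same name covers the locus, and the model that was counted may differ.

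Of the other genes of the CYP4F subfamily, 3 of the 5 tested were called by limma, all down-regulated. Among these 3 is CYP4F35P, which shares stretches with CYP4F29P. As CYP4F29P was chosen on this contrast, the call of CYP4F35P may not be separate from that choice. Of all genes tested, 6.33% were called and 1.97% were called lower. The 3 CYP4F genes were also the only ones that limma called among the 23 other P450 genes tested (13%). All 5 had a negative difference, with a median log2 difference of -3.22, beside -0.03 over all genes tested. CYP4F12 (chr19:15673018-15697174), which hydroxylates fatty acids and some drugs, had 355.9, 225.6 and 437.8 normalized counts in the controls (replicates 1 to 3) and 8.238, 8.524 and 2.236 in depleted replicates 1 to 3. The groups were far apart, and CYP4F12 fell by 5.64 on the log2 scale (SE 0.58, limma adjusted p = 0.00157). CYP4F3 (chr19:15640897-15662825), the leukotriene B4 hydroxylase, had 903.6, 193.9 and 328.6 in control replicates 1 to 3, and 54.92, 36.06 and 33.54 in depleted replicates 1 to 3. Although control replicate 1 was well above its replicates, the groups did not overlap, and CYP4F3 fell by 3.22 on the log2 scale (SE 0.58, limma adjusted p = 0.0148). Its call was lost without depleted replicate 2 (limma adjusted p = 0.0642) or replicate 3 (0.0631).

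Among the CYP4F pseudogenes, CYP4F35P had 0, 4.59 and 0 normalized counts in depleted replicates 1 to 3, below each control sample. It fell by 4.63 on the log2 scale (SE 1.05, limma adjusted p = 0.0374), but on 7 reads in the depleted samples the value depends on the pseudocount, and with a pseudocount of 10 it was -2.30 and uncalled (0.0772). The call was also lost in edgeR (adjusted p = 0.0699), and without control replicate 1 (0.103) or depleted replicate 1 (0.0903) or 3 (0.134). CYP4F8, a prostaglandin hydroxylase known from seminal vesicles, had 31.33, 7.616 and 58.04 with growth factors and 1.831, 3.934 and 8.944 without, and was not called by limma (adjusted p = 0.184), though DESeq2 called it lower. CYP4F23P had its highest value in control replicate 3 (91.49) and at most 19.67 elsewhere, and was not called either (0.861).

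CYP4F11, CYP4F3, CYP4F12, CYP4F8 and CYP4F23P all lie on chromosome 19 within 500 kb of the start of CYP4F11. Of the 13 genes tested there that are not P450 genes, 2 were called (15.4%, beside 6.33% of all genes tested). The long noncoding RNA UCA1, at -107 kb from the start of CYP4F11, had 315.8, 172.8 and 1543 normalized counts in the controls (replicates 1 to 3) and 8.238, 34.09 and 35.78 in depleted replicates 1 to 3. It fell by 4.27 on the log2 scale (limma adjusted p = 0.0238), with control replicate 3 the highest, as for CYP4F11. KLF2, a transcription factor of the Krüppel family at 390 kb, had at most 4.919 normalized counts in control and at least 73.79 in depleted samples, and rose by 4.54 (limma adjusted p = 0.00389). The median log2 difference of these 13 genes was -0.03, equal to that of all genes tested. However, 7 of the 13 had an unadjusted limma p under 0.05, beside 20% of all genes tested. All depleted samples lay below the control samples in 2 and above them in 5, beside 12.1% and 13.5% of all genes tested.

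**Figure D2:**
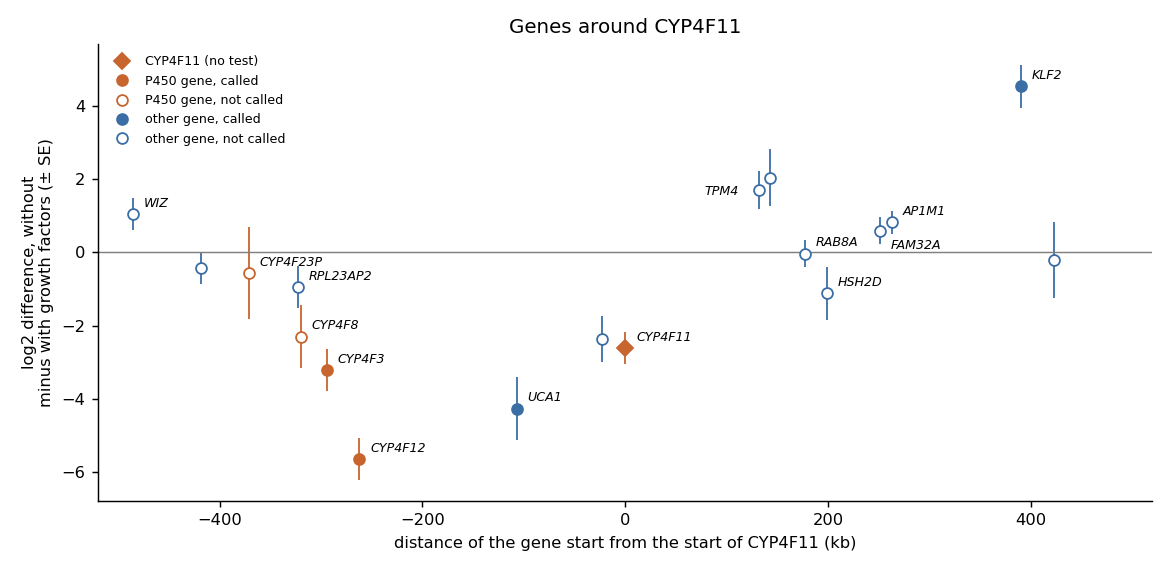
Log2 difference (without minus with growth factors, ± SE, 3 samples against 3) of the 18 genes tested within 500 kb of the start of CYP4F11, by the distance of their starts in kb; unnamed points are genes with an identifier only. CYP4F12 (-5.64), UCA1 (-4.27) and CYP4F3 (-3.22) lie below 0 on the left of CYP4F11 (-2.61), and KLF2 (4.54) lies above 0 on the right.

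Outside the CYP4F subfamily, 0 of 18 P450 genes were called by limma, and 0 by edgeR. By DESeq2, 3 were called, all higher, and 3 (beside 20% of all genes tested) had an unadjusted limma p under 0.05. Those 3 were CYP4V2, CYP2U1 and CYP27C1. CYP4V2, a fatty acid hydroxylase of the eye and other tissues, had 86.47, 163.5 and 189.9 normalized counts in the controls (replicates 1 to 3) and 730.4, 346.2 and 315.3 in depleted replicates 1 to 3, without overlap (log2 difference 1.62, SE 0.46, limma adjusted p = 0.0788). CYP2U1, another fatty acid hydroxylase, had a mean of 222 ± 38.5 with and 468 ± 85.5 without growth factors (SD, n = 3), with a log2 difference of 1.07 (limma adjusted p = 0.0879). CYP27C1, which desaturates vitamin A, had 10.82 to 25.19 in control and 45.24 to 75.05 in depleted samples (log2 difference 1.76, limma adjusted p = 0.103). Without control replicate 3, limma called CYP4V2 (log2 difference 1.85, adjusted p = 0.0417) and CYP2U1 (1.18, 0.0373). In all 3 the depleted samples lay above the control samples, as in 13.5% of all genes tested.

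The more abundant of the remaining P450 genes did not pass the test in the fit to all 6 samples. CYP2R1, which carries out the step before CYP27B1 in vitamin D activation, had a log2 difference of -0.08 (SE 0.34, limma adjusted p = 0.93), with means of 374 ± 116 and 348 ± 74.6 (SD, n = 3). CYP26B1, which breaks down retinoic acid, had 112.8 to 208 normalized counts in control and 80.49 to 108.9 in depleted samples, just apart, with a log2 difference of -0.72 (limma adjusted p = 0.37). CYP20A1, CYP39A1 and CYP4X1 had log2 differences of 0.15, 0.54 and -0.85 and limma adjusted p-values of 0.844, 0.687 and 0.597. CYP51A1, a sterol demethylase of cholesterol synthesis, had -0.53 (limma adjusted p = 0.639). Its processed pseudogenes CYP51A1P1 and CYP51A1P2 had -0.85 and -0.93 (limma adjusted p = 0.408 and 0.467), and were called without control replicate 3, at -1.44 (0.0148) and -1.70 (0.0126). They held more counts than the gene, with means over 6 samples of 318 and 424 against 160, and as processed copies of its transcript they can share its reads, so these 3 counts are uncertain. Of the 30 further P450 genes, 7 fell below the mean of 10 normalized counts and were not tested.

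**Figure D3:**
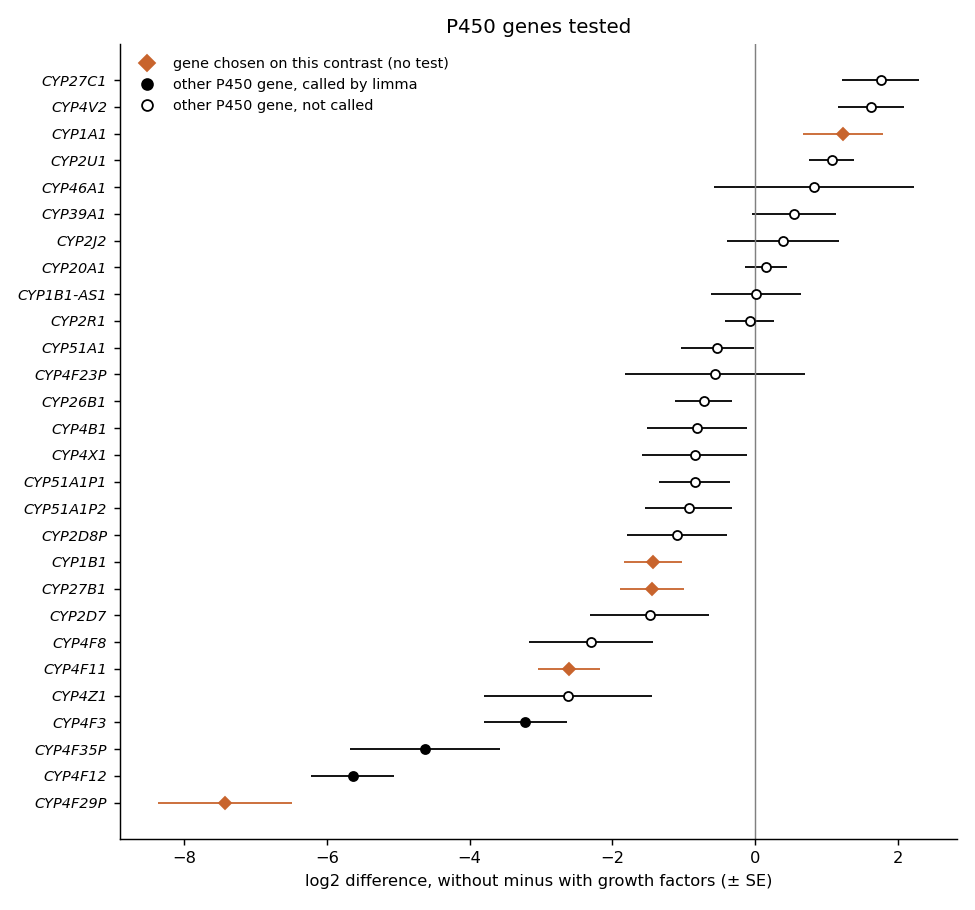
Log2 differences (without minus with growth factors, ± SE, 3 samples against 3) of the 28 P450 genes that averaged 10 or more normalized counts. Diamonds are the genes chosen on this contrast, which carry no test, filled circles are other P450 genes called by limma and open circles those not called; the 3 called, CYP4F12, CYP4F35P and CYP4F3, lie at -5.64, -4.63 and -3.22.

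Over all 8 pathway lists, 9 of 60 genes were called (15%), 3 up-regulated and 6 down-regulated, beside 6.33% of all genes tested, and the median log2 difference was -0.14. A further 24 listed genes are not analysed here.

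AHR itself was among the more abundant genes and was not called. It had 11847, 6997 and 6792 normalized counts in the controls (replicates 1 to 3) and 4106, 10394 and 6209 in depleted replicates 1 to 3, with a log2 difference of -0.36 (SE 0.43, limma adjusted p = 0.711). ARNT, its partner, differed by -0.14 (SE 0.3, limma adjusted p = 0.859). ARNT2, a second form of the partner best known from the nervous system, was the only 1 of 8 AHR sensing genes called by limma, edgeR or DESeq2. Limma called 6.33% of all genes tested. Its normalized counts were 26.32, 25.78 and 44.27 in control replicates 1 to 3, and 1009, 704.8 and 791.5 in depleted replicates 1 to 3. The groups were far apart, and ARNT2 rose by 4.69 on the log2 scale (SE 0.38, limma adjusted p = 5.6e-04). AHRR, the repressor that AHR switches on, had 12.53, 22.26 and 108.2 with and 126.3, 82.61 and 78.26 without growth factors. Only control replicate 3 reached the depleted samples, and AHRR was not called (log2 difference 1.54, limma adjusted p = 0.311). Without that sample it was, as higher (log2 difference 2.41, limma adjusted p = 0.0176). The chaperones of AHR, HSP90AA1, HSP90AB1 and PTGES3, had log2 differences of 0.23, -0.30 and 0.11 with limma adjusted p-values of at least 0.766.

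The genes listed as AHR targets outside the P450 family did not follow CYP1A1 as a group. AHRR, which AHR also switches on, was listed with the sensing genes and had a log2 difference of 1.54, uncalled. Of 5 tested on the target list, 1 was called by limma, beside 6.33% of all genes tested. All 5 log2 differences were negative, with a median of -0.72. SLC7A5, the large neutral amino acid transporter, had 33244, 14326 and 24411 normalized counts in the controls (replicates 1 to 3) and 926.3, 5717 and 3229 in depleted replicates 1 to 3. It fell by 3.14 on the log2 scale (SE 0.65, limma adjusted p = 0.026), but was not called by edgeR (adjusted p = 0.0509) or without control replicate 1 (limma 0.101) or depleted replicate 3 (0.0771). TIPARP, the ADP-ribosylating enzyme that feeds back on AHR, had 3634, 2684 and 1912 with and 4269, 1605 and 1465 without growth factors (limma adjusted p = 0.782). NQO1, a quinone reductase shared with the NRF2 response, had 4703, 8869 and 2382 with and 8053, 1642 and 1686 without (0.639), and NFE2L2, which encodes NRF2, differed by -0.42 (0.484).

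Depleted replicate 1 was the highest depleted sample for CYP1A1, CYP1B1, AHRR, TIPARP, NQO1 and the aldehyde dehydrogenase gene ALDH3A1, and the lowest for AHR and SLC7A5. In ALDH3A1 the contrast was largest, with 1115 normalized counts in depleted replicate 1 against 9.179 and 29.07 in replicates 2 and 3, and 108.2 to 308.2 in control samples. Its mean was therefore higher in depleted cells (384 against 191), while its log2 difference was -1.32 (limma adjusted p = 0.698). Over all genes tested, replicate 1 was the highest depleted sample in 39% and the lowest in 35.5%. Without it, the log2 differences were -1.48 for NQO1 (limma adjusted p = 0.188), -0.79 for TIPARP (0.312) and 1.32 for AHRR (0.516), none of them called, and SLC7A5 stayed called with -2.40 (0.0369). Depleted replicate 1 is also the library with little KRT5 and CDH1, though KRT14, ITGA6 and ITGB4 were highest there among depleted samples.

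**Figure D4:**
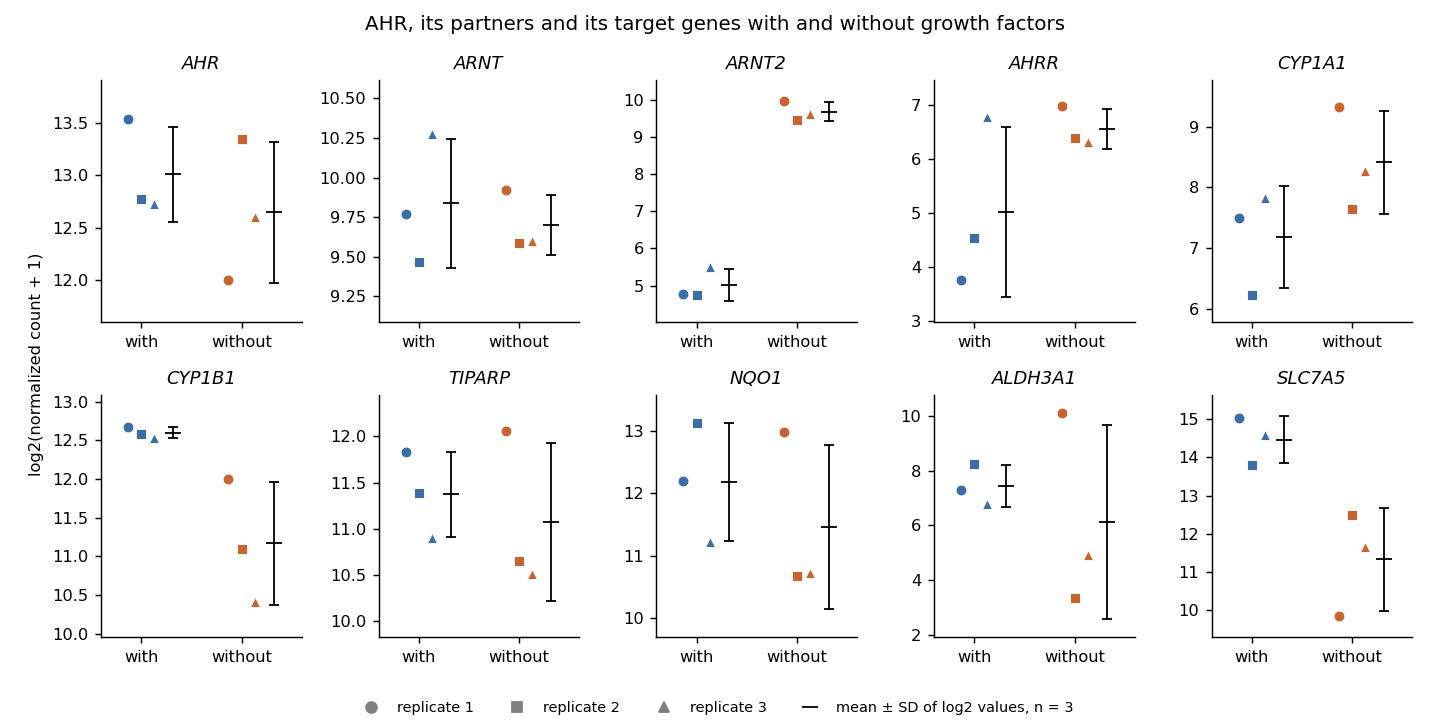
Normalized counts on a log2(normalized count + 1) axis, with a separate range for each gene, of AHR, its partners ARNT and ARNT2, its repressor and its target genes with (blue) and without (orange) growth factors. Points are single samples, shaped by replicate, and bars the mean ± SD of the log2 values (n = 3); ARNT2 lies near 5 in control and near 10 in depleted cells, and depleted replicate 1 (circle) is the highest depleted sample of CYP1A1, CYP1B1, AHRR, TIPARP, NQO1 and ALDH3A1.

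Of the genes that supply electrons to P450 enzymes, POR, the oxidoreductase used by CYP4F11, CYP1A1 and CYP1B1, was the only 1 of 9 called by limma or edgeR. Limma called 6.33% of all genes tested. DESeq2 called 3, POR, FDX1 and FDXR, all lower. POR had 2055, 1445 and 1416 normalized counts in the controls (replicates 1 to 3) and 583, 639.9 and 563.5 in depleted replicates 1 to 3. The depleted samples lay close together and below all control samples, and POR fell by 1.44 on the log2 scale (SE 0.27, limma adjusted p = 0.0181). The call was lost without control replicate 1 (0.0658) or depleted replicate 2 (0.0763) or 3 (0.0971). The mitochondrial pair that serves CYP27B1 lay lower in all depleted samples, as did 12.1% of all genes tested, but was not called by limma or edgeR. FDXR, the ferredoxin reductase, had 338.4, 360.3 and 362 with and 162, 148.8 and 187.8 without growth factors (log2 difference -1.09, limma adjusted p = 0.0728), and FDX1, the ferredoxin, had 531.2 to 2155 with and 423.6 to 463.1 without (-1.19, 0.205). CYB5R3, PGRMC1, PGRMC2 and CYB5B, which encode further electron carriers and P450 partners, had log2 differences of 0.49, 0.33, 0.93 and 0.27 and were not called.

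In haem synthesis and breakdown, limma called 0 of 10 genes, beside 6.33% of all genes tested, edgeR called 0 and DESeq2 called 1. Of the 10, 1 had an unadjusted limma p under 0.05, beside 20% of all genes tested. The median log2 difference was 0.02. The gene concerned was HMOX1, the inducible haem oxygenase, with 87.73, 118.3 and 65.91 normalized counts in the controls (replicates 1 to 3) and 134.5, 664.8 and 456.1 in depleted replicates 1 to 3. Its depleted samples lay above all control samples, as in 13.5% of all genes tested (log2 difference 1.95, limma adjusted p = 0.0997). ALAS1, the rate-limiting enzyme of haem synthesis, had means of 564 and 503 and a log2 difference of -0.14 (limma adjusted p = 0.86).

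Among the vitamin D genes, 0 of 6 were called by limma, edgeR or DESeq2, where limma called 6.33% of all genes tested. Of the 6, 1 had an unadjusted limma p under 0.05, beside 20% of all genes tested. VDR, the receptor for the product of CYP27B1, had 1040, 855.3 and 673.9 normalized counts in the controls (replicates 1 to 3) and 945.5, 1416 and 1236 in depleted replicates 1 to 3, with a log2 difference of 0.49 (SE 0.29, limma adjusted p = 0.418). DHCR7, which diverts the vitamin D precursor to cholesterol, differed by -0.61 (0.6), by -0.10 without control replicate 1 (0.952) and by -1.26 without control replicate 3, where it was called (0.0327).

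Retinoid genes moved in both directions, with 3 of 9 called by limma, beside 6.33% of all genes tested. RARB, a retinoic acid receptor that is itself a classical target of retinoic acid, had 11.28, 1.172 and 0 normalized counts in the controls (replicates 1 to 3) and 55.83, 75.4 and 93.91 in depleted replicates 1 to 3. It rose by 4.64 on the log2 scale (SE 0.92, limma adjusted p = 0.0221). CRABP2, which carries retinoic acid to the nucleus, had 93.99, 116.6 and 48.2 with and 539.1, 323.2 and 348.8 without growth factors, and rose by 2.27 (SE 0.44, limma adjusted p = 0.0195). LRAT, which esterifies retinol for storage, had 1722, 1676 and 1844 with and 190.4, 287.2 and 140.9 without, and fell by 3.14 (SE 0.32, limma adjusted p = 0.00157). The groups did not overlap for any of the 3, as for 25.6% of all genes tested. DHRS3, RARG and ALDH1A3, each with a mean above 1000, differed by 1.01, -0.61 and -0.37 and were not called (limma adjusted p = 0.131, 0.305 and 0.771). RARB was not called by edgeR (adjusted p = 0.0584) or without control replicate 2 (limma 0.0702), and without depleted replicate 2 or 3 neither RARB (0.0939 and 0.0984) nor CRABP2 (0.0689 and 0.0803) was. CRABP2 was also uncalled without control replicate 1 (0.0549) or depleted replicate 1 (0.0637).

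Genes that make or turn over leukotrienes and hydroxy fatty acids, the substrates of CYP4F enzymes, were down-regulated where they were called. Limma called 3 of 10, beside 6.33% of all genes tested, and the median log2 difference of the 10 was -0.76. ALOX15B, a lipoxygenase of skin and other epithelia, had 347.1, 198.6 and 72.8 normalized counts in the controls (replicates 1 to 3) and 2.746, 3.934 and 4.472 in depleted replicates 1 to 3, and fell by 5.21 on the log2 scale (SE 0.66, limma adjusted p = 0.00349). LTA4H, which makes leukotriene B4, had 4467, 3793 and 2911 with and 1856, 1082 and 1346 without growth factors, and fell by 1.40 (SE 0.31, limma adjusted p = 0.0358). PLA2G4A, the phospholipase that releases arachidonic acid, had 828.4, 431.2 and 270.5 with and 76.88, 121.3 and 161 without, and fell by 1.99 (SE 0.48, limma adjusted p = 0.0484). Depleted samples were below all control samples in each, as in 12.1% of all genes tested. ALOX15B was called in all 6 fits that left out 1 sample. LTA4H was not called without control replicate 1 (limma adjusted p = 0.123) or 2 (0.0966) or depleted replicate 2 (0.167) or 3 (0.15). PLA2G4A was not called without control replicate 1 (0.152) or 2 (0.115) or depleted replicate 1 (0.121), 2 (0.142) or 3 (0.0953).

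Of the xenobiotic sensors outside AHR, 3 of 7 were tested, PPARA, PPARD and PPARG. None was called by limma, edgeR or DESeq2, where limma called 6.33% of all genes tested. An unadjusted limma p under 0.05 was found for 0, beside 20% of all genes tested, with log2 differences from -0.97 to 0.12.

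**Figure D5:**
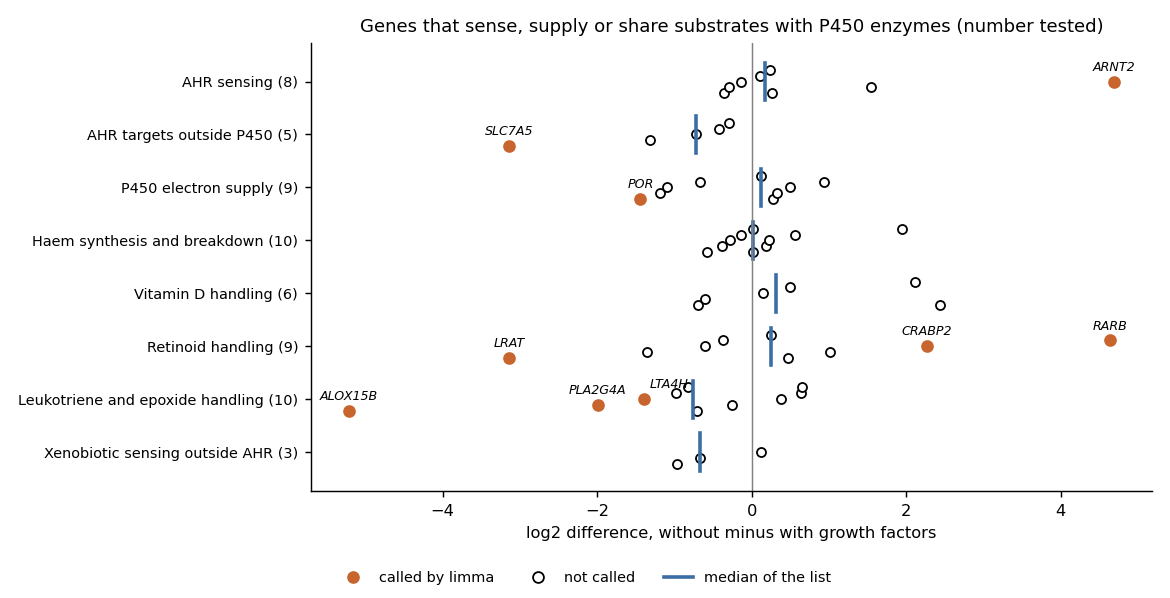
Log2 difference (without minus with growth factors, 3 samples against 3) of the 60 tested genes in 8 P450-related lists. Each circle is a gene, filled where limma called it and open where not, and the vertical bar is the median of the list; ARNT2 (4.69), RARB (4.64) and CRABP2 (2.27) lie to the right, and ALOX15B (-5.21), LRAT (-3.14) and SLC7A5 (-3.14) to the left.

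The genes whose log2 values were most like those of CYP4F11 over the 6 samples included FAM185A, TNNI2, GTF2I and RYR2, with Pearson's r between 0.9929 and 0.9948. They were taken from the 11687 genes that averaged 100 or more normalized counts, of which 367 had r over 0.9. As the 6 samples fall into 2 separate groups, r cannot be told apart from the difference between the conditions, and it is given as a description. TNNI2, a troponin of fast muscle, had means of 1674 ± 596 and 207 ± 66.9, and RYR2, a calcium release channel, had 214 ± 97.7 and 23.2 ± 9.73 (SD, n = 3). GTF2I has near-identical copies in the genome, so its count is uncertain. Among the P450 genes described, r with CYP4F11 was 0.98 for CYP4F29P, 0.92 for CYP27B1, 0.76 for CYP1B1 and -0.65 for CYP1A1. Control replicate 3 was the highest control sample for CYP4F11, CYP4F29P and CYP1A1, as it was in 41.3% of all genes tested.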

How the data were processed

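The authors made strand-specific libraries from total RNA depleted of ribosomal RNA, sequenced 100 bases from one end, trimmed the reads with cutadapt 1.6, aligned them with TopHat2 (hg38) and counted per gene with HTSeq and Gencode v22 (tools and versions from the submitters' processing notes and the methods). The file holds a deposited signal value per gene and sample, namely counts that the authors divided by DESeq2 1.8.1 size factors. All values (100%) were whole reads within 0.01 once divided by the value of 1 read, so read counts were recovered. Depth was 7472418 to 28672630 reads on genes per sample, and 3 reads were taken as the floor. Names came from Gencode v44, which matched 18913 of 19198 identifiers.

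Groups and replicate numbers came from the sample labels. Log2(normalized count + 1) of the 16988 genes that averaged 10 or more was fitted with limma 3.58.1 (lmFit, eBayes with a trend) in R 4.3.3, 3 depleted against 3 control samples, and calls required a change of at least 2-fold and an adjusted p (Benjamini-Hochberg, over all genes) under 0.05. An exact two-sided permutation test of 3 against 3 cannot go below 0.1 for a single gene. The steps were tested on simulated data. Alternatives were pseudocounts of 0.5 and 10, no filter or a filter at a mean of 50, quantile normalization, equal totals, no trend, a replicate block, edgeR 4.0.16 and DESeq2 1.42.0 on the recovered reads, an adjusted p under 0.1, and each sample left out.

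The P450 genes described, the pathway lists and the tests were chosen with earlier results of these data known. Named are the P450 genes described, other P450 genes that were called or had a mean of at least 100, list genes that were called or had a mean of at least 1000, AHR, ARNT, AHRR, POR and VDR, and the 5 genes most correlated with CYP4F11, of which 1 is not reported here. Other genes, such as ALDH3A1, HMOX1, FDXR, FDX1, ALAS1, CYP27C1, CYP4F8, CYP4F23P, UCA1, KLF2 and the PPAR genes, were named after their values were seen. Hormone-sensing, endothelial, blood, adipocyte and hepatocyte markers were summed as well, and of these only CDH5 was called, as higher. KRT19 and TP63 were the epithelial markers called lower. Sequences were read with Python 3.11.15.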

Additional observations from a re-analysis of the deposited data

How the results depend on the processing

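Over the 3 counts of calls, most settings stayed within 1.5 times the reported value. All genes called numbered 1076, and 2112 with DESeq2, 1706 at an adjusted p under 0.1, and 453 to 2474 when 1 sample was left out, the highest without control replicate 3 and the lowest without depleted replicate 2. Other P450 genes called numbered 3, and 7 with DESeq2, 5 at an adjusted p under 0.1, and 1 to 7 with 1 sample left out, again highest without control replicate 3 and lowest without depleted replicate 3. Pathway genes called numbered 9, and 3 to 15 with 1 sample left out, lowest without depleted replicate 3 and highest without control replicate 3, with 4 without control replicate 1 or depleted replicate 2. The cause was not tested. No other P450 gene or pathway gene that limma called in the fit to all 6 samples changed sign under any setting. Of these genes, CYP4F12, ARNT2, LRAT and ALOX15B were called under all settings. UCA1, KLF2, the cell type markers and the genes correlated with CYP4F11 were not followed across the settings.

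When a replicate block was added, 967 genes, 3 other P450 genes and 6 pathway genes were called, and POR (adjusted p = 0.0603), LTA4H (0.075) and PLA2G4A (0.072) were not. The labels do not say whether the numbers pair the samples. Across genes, deviations from the group mean correlated at -0.0726, -0.283 and -0.323 for same-numbered samples and at -0.0677 to 0.291 for the others. As the deviations sum to 0 within each group of 3, these values cannot decide whether samples were paired.

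The log2 difference of CYP4F11 ranged from -2.75 to -2.36 with 1 sample left out, that of CYP4F29P from -8.15 to -6.49 (the latter without control replicate 3), CYP1A1 from 0.75 to 1.61, CYP1B1 from -1.85 to -1.05 and CYP27B1 from -1.55 to -1.26. Per kb of all exons together, in place of the longest transcript, CYP1B1 had 1032 normalized counts in control and CYP27B1 8.83 in depleted cells. On 1 strand, GCGTG was present in 22.3% and AGAACA in 8% of promoters. With 3 samples a group, 4 agents removed at once and low read counts of CYP4F11, CYP4F29P and CYP27B1 in depleted cells, small differences were not detectable at this depth.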
